A study of Homo sapiens with 12 samples.

Results

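The genes described here encode the ADAM, ADAMTS and ADAMTSL proteins, the matrix metalloproteinases (MMPs) and the tissue inhibitors of metalloproteinases (TIMPs). A gene was a member if its symbol was ADAM, ADAMTS, ADAMTSL, MMP or TIMP followed by a number (for MMPs also a final A or B) on a row with an Ensembl transcript identifier. By this rule 71 of the 19647 genes in the table were members: 20 ADAM, 19 ADAMTS, 5 ADAMTSL, 23 MMP and 4 TIMP genes. Levels are FPKM, fragment counts scaled by transcript length and library size, summed over the transcripts of a gene. A gene was called expressed when 3 or more of the 12 libraries had it at FPKM 1 or above, which held for 25 members (35.2%) and for 11908 of all genes (60.6%).

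The libraries came from A549, an established human lung adenocarcinoma line that carries a KEAP1 mutation, shared by every group. They fell into 4 groups of 3: cells overexpressing NR0B1, their control (labelled WT-overexpression control), cells with NR0B1 knocked down, and their control (labelled WT-knockdown control). NR0B1 is an orphan nuclear receptor that mostly acts as a transcriptional repressor, and the study's title concerns glutathione metabolism and ferroptosis. All 4 groups are labelled with no treatment. The sample titles name the knockdown shNR0B1 and its control shNC, the usual names for a short hairpin RNA and a negative-control hairpin. Otherwise the labels name no vector, clone or time after transduction, and nothing says that replicates were separate cultures. The p-values therefore measure only the spread between these libraries, which may be technical.

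Summed over genes, a library held between 12800748 and 19654432 counts. NR0B1 itself stood at FPKM 33.4 to 40.2 with overexpression and 6.99, 24.6 and 22.0 in that control, a difference that was not called (log2 fold change 0.99, edgeR adjusted p = 0.0912). It stood at 1.28 to 2.45 in the knockdown against 5.47 to 9.01 (log2 fold change -2.06, edgeR adjusted p = 0.00593). Overexpression control replicate 1, whose NR0B1 lay within the range of the knockdown control, and knockdown replicate 2 stood apart from the other libraries of their groups, with chi-square values per degree of freedom of 70.8 to 142 against those libraries, and from 10.6 to 45.0 between all other replicate pairs. All 8 A549 and epithelial markers were expressed, with a sum of 4624 to 7797 FPKM in the knockdown against 7834 to 8468 in its control, and overlapping sums in the other arm. None of the 4 lung lineage markers was expressed, and fibroblast and endothelial markers summed to at most 2.45 FPKM in any library. Of 5 leukocyte markers only CD14 and CD68 were expressed, and their class summed to 20.0 to 63.6 FPKM in the knockdown against 15.6 to 23.6 in its control. The fibroblast class, which was not expressed, summed to 1.25 to 2.45 against 0.45 to 1.05 FPKM there. The part of these genes in the results was not tested, and in bulk RNA fewer cells of a type and less RNA per cell cannot be told apart.

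As background, most ADAM proteins are membrane-anchored proteases that release the outer parts of growth factors, receptors and adhesion molecules from the cell surface, a step called shedding. ADAMTS proteins are secreted, carry thrombospondin repeats and cut proteoglycans and other matrix proteins, while ADAMTSL proteins resemble them without a protease domain. MMPs cut collagens, basement membrane and many other extracellular substrates, and TIMPs block MMPs and several ADAM and ADAMTS proteases by occupying the active site. All of the active proteases hold a zinc ion with 3 histidines of a short conserved stretch whose glutamate carries out the cut.

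The coding sequence of that stretch is shown for 8 of the expressed members whose level changed, because it is the feature that makes them 1 group of enzymes. Each line gives 33 bases of the coding strand from the reference transcript (GENCODE 29, GRCh38), 5′ to 3′. Capitals mark the codons of the 3 zinc-binding histidines and of the catalytic glutamate, which is the second codon.
ADAM10: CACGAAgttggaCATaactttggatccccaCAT
ADAM15: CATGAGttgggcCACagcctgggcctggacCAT
ADAM19: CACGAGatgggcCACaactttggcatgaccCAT
ADAMTS7: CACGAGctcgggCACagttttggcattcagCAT
ADAMTS9: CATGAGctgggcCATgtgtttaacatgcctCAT
ADAMTS10: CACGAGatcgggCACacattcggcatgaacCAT
MMP7: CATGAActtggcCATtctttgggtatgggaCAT
MMP15: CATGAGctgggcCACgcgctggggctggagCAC
The stretch lies in exon 5 of MMP7 (chr11:102523343-102523375, minus strand), exon 5 of MMP15 (chr16:58040563-58040595, plus strand), exon 11 of ADAM15 (chr1:155056995-155057027, plus strand) and exon 11 of ADAM19 (chr5:157505734-157505766, minus strand). In the other 4 genes an intron splits it, between exons 9 and 10 of ADAM10 (chr15:58627881-58633225, minus strand), 7 and 8 of ADAMTS7 (chr15:78788359-78789705, minus strand), 8 and 9 of ADAMTS9 (chr3:64651148-64654369, minus strand) and 9 and 10 of ADAMTS10 (chr19:8596204-8596323, minus strand). Of the expressed proteases, 7 of 7 MMP, 6 of 6 ADAMTS and 5 of 8 ADAM genes had the stretch in at least 1 coding transcript. ADAM22 and ADAM23, known as ligand-binding proteins without protease activity, and ADAM32 did not, and neither did ADAMTSL4. Between members the 33 bases were alike to different degrees: MMP15 and MMP24 shared 32 of them, and ADAM10 and MMP15 shared 14.

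Levels spanned more than 2 orders of magnitude among the expressed members and were led by 4 genes. ADAM9, a broadly expressed sheddase, had the highest mean FPKM over the 12 libraries at 129. It was followed by TIMP1 at 82.2, by ADAM10, the sheddase of NOTCH and cadherins, at 68.7, and by MMP7 (matrilysin), a small secreted MMP of epithelial cells, at 66.3. ADAM15 (21.6), MMP24 (20.1), TIMP2 (18.4), ADAM17 (18.3), ADAM19 (13.7) and ADAMTS10 (11.1) formed the next tier. The other 15 expressed members had means from 9.73 (ADAMTS9) down to 0.63 (MMP14, the membrane-type collagenase activator of MMP2). MMP14 reached FPKM 1 in exactly 3 libraries and was the member nearest the threshold, while TIMP3, MMP25 and ADAM28 reached it in some library but in fewer than 3.

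**Figure D1:**
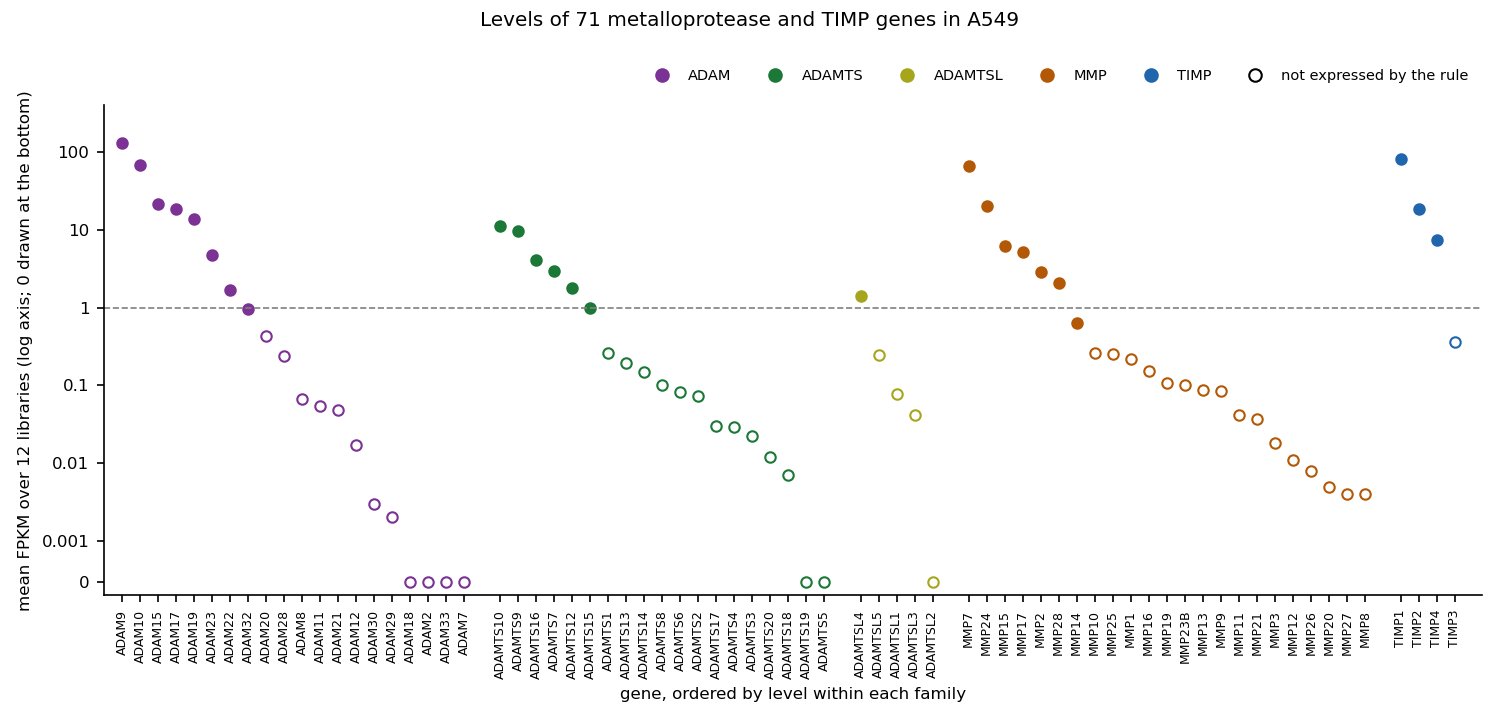
Mean FPKM over the 12 libraries (vertical log axis, with 0 drawn at the bottom) for each of the 71 members, ordered within families; filled points are the 25 expressed members and the dashed line is FPKM 1. ADAM9, TIMP1, ADAM10 and MMP7 lie above 60, and 7 members lie at 0.

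The 46 members that were not expressed included 7 at 0 in all libraries, among them ADAM2 and ADAM18, which are known from sperm, and 32 in all had a mean FPKM below 0.1. This holds for rows with Ensembl identifiers, and assembled transcripts without one were left out. Those named ADAM2 held 0.13 to 1.24 CPM (counts scaled to library size) over the 12 libraries. Those named ADAM12 held 12.2 to 36.8 CPM, while the mean FPKM of ADAM12 on Ensembl rows was 0.017. The MMPs best known from fibroblasts and leukocytes were low: MMP1 had a mean FPKM of 0.219, MMP9 0.084 and MMP3 0.018. On chromosome 11, 9 MMP members lie within 435227 bases (chr11:102520508-102955734), and of these MMP7 alone was expressed. The next highest there was MMP10 (stromelysin 2), with a mean FPKM of 0.258.

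The promoters of MMP7 and MMP10 are shown because both genes lie in that cluster and differ so widely in level. They are RefSeq windows (GRCh38.p14) from 250 bases before to 50 bases after the start site, read 5′ to 3′ on the gene's strand, at chr11:102530698-102530997 for MMP7 and chr11:102780579-102780878 for MMP10, both on the minus strand. Capitals mark the AP-1 word TGANTCA and the TATA word TATAAA.
MMP7: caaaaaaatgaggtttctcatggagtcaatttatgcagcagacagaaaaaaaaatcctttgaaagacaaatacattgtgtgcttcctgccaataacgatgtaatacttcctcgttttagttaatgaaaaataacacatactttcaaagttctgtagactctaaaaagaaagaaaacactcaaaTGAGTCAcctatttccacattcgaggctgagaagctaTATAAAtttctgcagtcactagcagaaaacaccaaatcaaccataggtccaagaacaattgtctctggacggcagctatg
MMP10: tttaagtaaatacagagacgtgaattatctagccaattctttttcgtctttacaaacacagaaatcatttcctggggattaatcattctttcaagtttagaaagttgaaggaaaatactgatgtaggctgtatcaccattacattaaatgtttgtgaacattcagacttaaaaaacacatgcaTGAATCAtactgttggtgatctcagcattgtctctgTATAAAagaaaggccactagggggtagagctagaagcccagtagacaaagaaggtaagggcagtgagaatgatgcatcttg
The AP-1 word starts at -67 from the start site in both windows, and the TATA word at -30 in MMP7 and -31 in MMP10. Promoter windows were found for 44 of the 71 members, 16 of them expressed. TGANTCA, searched on both strands and equal to its own reverse complement, was in 4 of the 44 and in 7.71% of 35116 promoters. TATAAA, searched on the gene's strand, was in 8 of the 44 and in 7.33% of all, and GGAATG, the word bound by TEAD factors, searched on both strands with no overlap with the other words here, was in 5 and in 14.0%. Among the 16 expressed members MMP7 alone held TATAAA, and MMP7 and ADAMTS12 held TGANTCA. The windows of the 16 expressed members had a median GC content of 74.5% and those of the 28 others 66.3%, against 58.7% over all promoters. That of MMP7 was 35.7%.

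With NR0B1 overexpressed, 5 expressed members were called lower and none higher by edgeR (adjusted p below 0.05): ADAM10, ADAM15, ADAMTS7, TIMP1 and TIMP4. That is 20.0% of the 25, against 18.1% of all genes tested, of which 9.87% were called higher and 8.2% lower. The median log2 fold change was -0.21 over the 25 and -0.03 over all genes, and 15 of the 25 were below 0 (60.0%, against 52.6% of all genes). The other 20 were not called, of which ADAMTS16 and ADAMTS9 were higher and ADAMTS10 and MMP7 lower at an unadjusted p below 0.05. DESeq2 and limma on log2(FPKM + 1) each called 1 member higher, ADAMTS16, which edgeR also called without overexpression control replicate 1 (edgeR adjusted p = 0.0310) or 2. Without overexpression control replicate 1 and knockdown replicate 2, 14 members were called, 11 lower and 3 higher (56.0%), but so were 37.5% of all genes.

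Among the sheddases, ADAM15, which cuts cadherins and carries an integrin-binding motif, had FPKM of 18.6, 17.7 and 19.3 with overexpression and 29.1, 33.3 and 31.8 in the control. The groups did not overlap, and the gene was 1.71-fold lower (log2 fold change -0.78 ± 0.11 SE, edgeR adjusted p = 0.00196). The call held in every fit that left out 1 library. ADAM10 stood at 65.3, 65.0 and 61.3 against 66.0, 81.6 and 101, so that the highest library with overexpression was just under the lowest control. Its log2 fold change was -0.44 ± 0.12 (edgeR adjusted p = 0.0296), and the call was lost without any 1 of 8 libraries (all of the overexpression and knockdown control groups and overexpression control replicates 2 and 3), with edgeR adjusted p-values of up to 0.110. ADAM17, the TNF-converting enzyme, stood at 15.1, 14.5 and 14.5 against 18.7, 16.7 and 24.8 and was not called (log2 fold change -0.45 ± 0.21, edgeR adjusted p = 0.148). Its exons share bases with IAH1 on the opposite strand, which had a mean FPKM of 28.5. With assembled transcripts added the log2 fold change of ADAM17 was -0.095, again not called (edgeR adjusted p = 0.679). ADAM9, at 113 to 124 against 121 to 147, was not called either (log2 fold change -0.22 ± 0.11, edgeR adjusted p = 0.193).

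ADAMTS7, which cuts cartilage oligomeric matrix protein, showed the largest drop of the 5 with FPKM of 0.80, 1.34 and 1.07 against 2.50, 4.61 and 4.27. All 3 libraries lay below all 3 controls, a 3.57-fold lower level (log2 fold change -1.84 ± 0.35, edgeR adjusted p = 0.00694). The log2 fold change was -1.14 with the assembled transcripts of that symbol added and -1.19 by limma on log2(FPKM + 1), and the gene was called lower in both fits. ADAMTS7 has near-identical pseudogene copies, and the sources used here do not give how the counting shared reads among them. Its relative ADAMTS10, a fibrillin-binding protein of microfibrils, had 9.46, 9.66 and 8.51 against 19.0, 14.4 and 10.99. These groups did not overlap, but the difference was not called (log2 fold change -0.83 ± 0.27, edgeR adjusted p = 0.0533). It was called lower without knockdown replicate 2 (edgeR adjusted p = 0.0201) or 3 (0.0203) and in 5 of 9 other settings. ADAMTS9, a versican-cutting protease, stood at 14.5, 14.6 and 14.8 against 15.6, 7.42 and 7.31, where replicate 1 of the control sat apart from the other two. It was not called over all libraries (edgeR adjusted p = 0.136), and without that replicate it was called higher (log2 fold change 1.04, edgeR adjusted p = 0.000327).

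Of the MMPs, none was called with overexpression in the fit over all 12 libraries. MMP7 stood at 78.0, 58.3 and 53.7 against 157, 86.9 and 107, with no overlap (log2 fold change -0.91 ± 0.35, edgeR adjusted p = 0.0950). It was called lower without knockdown replicate 2 (edgeR adjusted p = 0.0188). DESeq2 also called MMP7, together with ADAMTS10. MMP28 (epilysin), at 1.23, 1.63 and 1.36 against 0.63, 5.23 and 6.57, was split in its control group, where replicate 1 lay below all 3 overexpression libraries. It was not called (edgeR adjusted p = 0.213), and without that replicate it was called lower (edgeR adjusted p = 0.0281).

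Of the 3 expressed inhibitors, TIMP1 and TIMP4 were called lower. TIMP1, the TIMP with the highest FPKM on Ensembl rows, stood at 86.1, 85.1 and 79.1 against 103, 124 and 113 (log2 fold change -0.45 ± 0.13, edgeR adjusted p = 0.0335). The groups did not overlap, but the call was lost without any 1 of 6 libraries (the 3 of overexpression, overexpression control replicates 2 and 3, and knockdown control replicate 2), with edgeR adjusted p-values of up to 0.120. TIMP4, a TIMP of restricted tissue range, stood at 5.17, 2.69 and 3.26 against 12.1, 6.74 and 8.32. That is 2.47-fold lower without overlap (log2 fold change -1.30 ± 0.28, edgeR adjusted p = 0.0117), and without overexpression replicate 3 the edgeR adjusted p was 0.0529. TIMP2, the TIMP that helps MMP14 to activate MMP2, was narrow in range at 18.9, 17.9 and 18.5 against 23.2, 19.5 and 20.5 and was not called (edgeR adjusted p = 0.507). Assembled transcripts named TIMP2, left out of these values, held 173 to 318 CPM over the 12 libraries, against 53.8 to 122 CPM on its Ensembl rows. Those named TIMP4 held 16.3 to 58.7 CPM, against 5.48 to 25.5 CPM on Ensembl rows. With them added TIMP4 was still called lower (log2 fold change -1.09, edgeR adjusted p = 0.0105). TIMP1 had 47.0 to 107 CPM on Ensembl rows and at most 0.44 CPM on assembled transcripts.

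**Figure D2:**
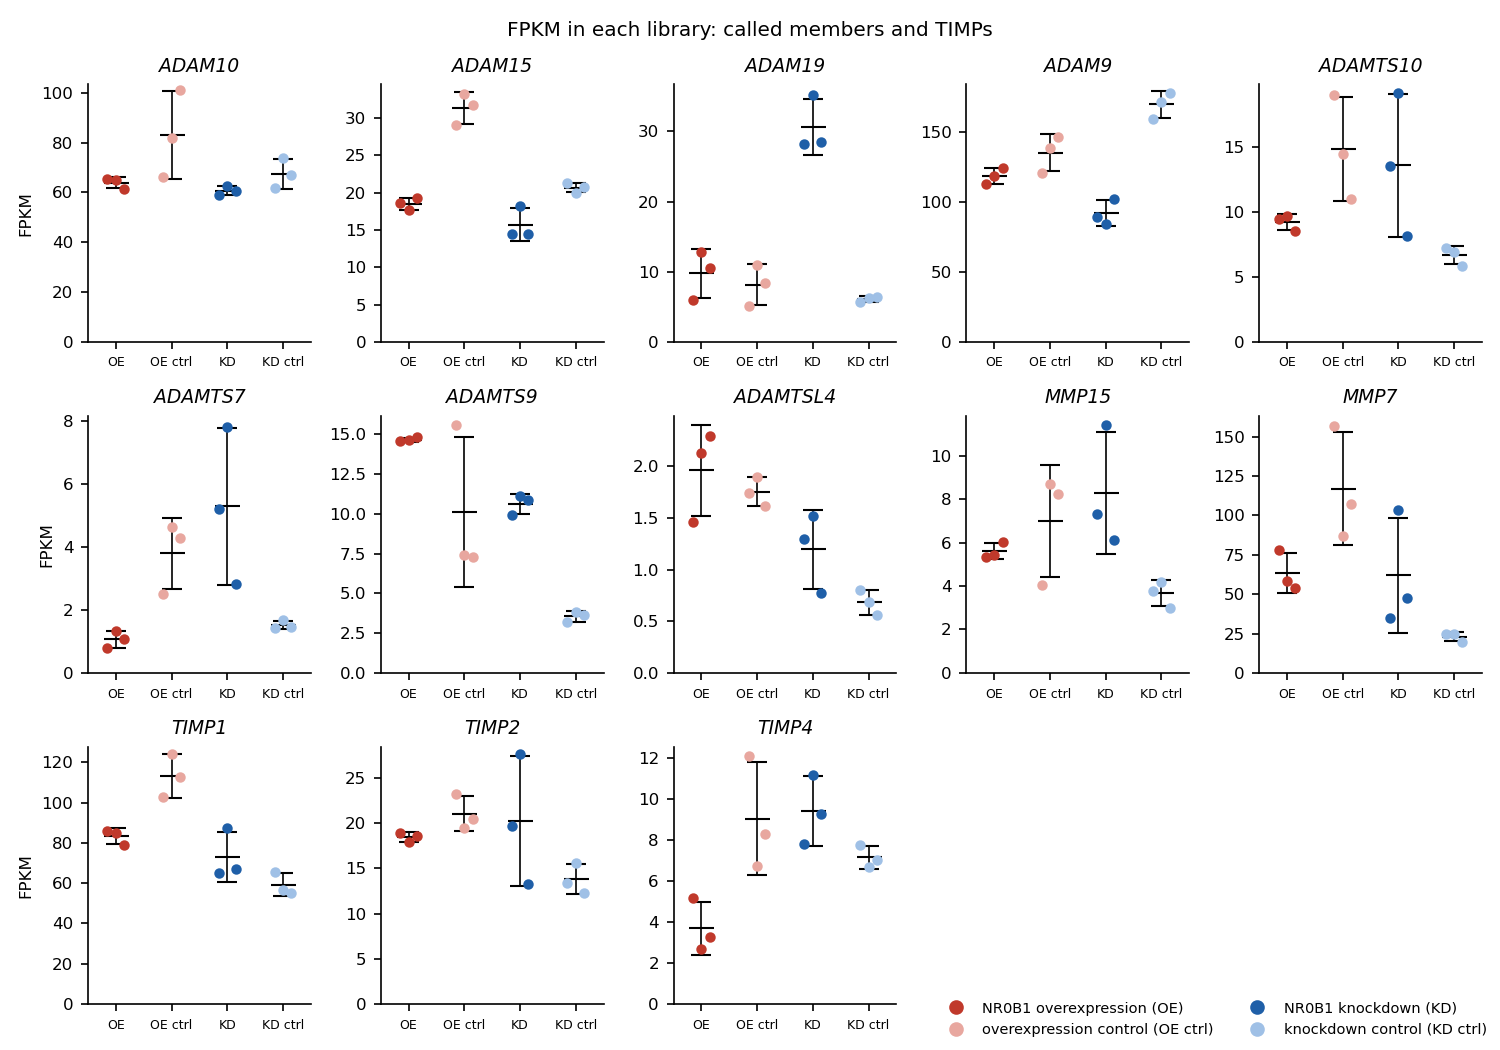
FPKM (vertical axes from 0) in each library, by group (horizontal axis), for the 10 named proteases and related genes and the 3 expressed TIMPs; points are libraries, and bars give the mean and SD of 3. ADAM19 in the knockdown, at 28.1 to 35.2, lies above every other library, and ADAM15 with overexpression lies below its control.

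With NR0B1 knocked down, 6 members were called higher and 2 lower, 32.0% of the 25 against 23.9% of all genes (12.4% higher, 11.5% lower). The higher ones were ADAM19, ADAMTS7, ADAMTS9, MMP7, MMP15 and ADAMTS10, and the lower ones ADAM9 and ADAM15. The median log2 fold change was 0.43 over the 25 and 0.03 over all genes, and 19 of the 25 were above 0, against 6227 of 11908 genes. By family, 3 of 6 ADAMTS, 2 of 7 MMP and 1 of 8 ADAM genes rose, 2 of 8 ADAM genes fell, and none of 3 TIMPs was called by edgeR. At an unadjusted p below 0.05, ADAMTS12, ADAMTSL4, MMP28, TIMP1 and TIMP2 were higher too, and DESeq2 called TIMP2. Without the pair of libraries that stood apart, 7 were called higher and 2 lower (36.0%), against 37.7% of all genes.

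ADAM19, a sheddase of neuregulins, rose most. Its FPKM was 28.1, 35.2 and 28.5 in the knockdown and 5.69, 6.23 and 6.40 in the control, with no overlap and a 5.11-fold difference (log2 fold change 2.35 ± 0.28, edgeR adjusted p = 0.000401). The call held in every fit that left out 1 library, and the log2 fold change was 2.27 without the libraries that stood apart. An exon of ADAM19 overlaps one of CYFIP2, which lies on the opposite strand and had a mean FPKM of 27.7. The sources used here do not say whether counting used strand, so reads of the shared bases cannot be told apart.

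ADAM9 moved the other way. At 89.7, 84.0 and 102 in the knockdown against 160, 171 and 178 it was 1.81-fold lower without overlap (log2 fold change -0.85 ± 0.11, edgeR adjusted p = 0.000626), in every fit that left out 1 library. ADAM15 was lower as well, at 14.5, 18.3 and 14.4 against 21.2, 20.0 and 20.8 (log2 fold change -0.37 ± 0.11, edgeR adjusted p = 0.0261). Leaving out knockdown replicate 1 or 3 or knockdown control replicate 1 or 3 ended that call, with edgeR adjusted p-values of up to 0.0845. ADAM10, at 58.8, 62.5 and 60.6 against 61.6, 73.8 and 66.9, and ADAM17, at 21.3, 24.1 and 13.7 against 20.4, 18.9 and 17.2, were not called (edgeR adjusted p = 0.530 and 0.732).

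Of the 6 secreted ADAMTS proteases, 3 rose. ADAMTS7 had FPKM of 5.21, 7.81 and 2.82 against 1.41, 1.67 and 1.47, a 3.56-fold rise without overlap (log2 fold change 1.83 ± 0.34, edgeR adjusted p = 0.00378; 1.24 by limma on log2(FPKM + 1)). ADAMTS9 stood at 9.90, 11.1 and 10.9 against 3.18, 3.81 and 3.65, tightly grouped on both sides, and was 2.89-fold higher (log2 fold change 1.53 ± 0.26, edgeR adjusted p = 0.00216). Both calls held in every fit that left out 1 library. ADAMTS10, at 13.5, 19.1 and 8.14 against 7.22, 6.94 and 5.85, was 2.02-fold higher (log2 fold change 1.01 ± 0.27, edgeR adjusted p = 0.0196), but not without knockdown control replicate 2 or 3 (edgeR adjusted p = 0.0517 and 0.0786). For ADAMTS7 and ADAMTS10, knockdown replicate 2 was the highest and replicate 3 the lowest of the group. ADAMTS12, which cuts cartilage oligomeric matrix protein like ADAMTS7, stood at 2.23, 2.90 and 2.22 against 1.95, 1.32 and 1.09 and was not called (edgeR adjusted p = 0.125), but was called higher without overexpression replicate 1 (edgeR adjusted p = 0.00738) and with assembled transcripts added (0.00432).

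Of the MMPs, MMP7 stood at 34.8, 103 and 47.4 against 24.5, 24.8 and 19.9. All knockdown libraries were above all controls, but replicate 2 was far above the other two, and the rise was 2.74-fold (log2 fold change 1.45 ± 0.36, edgeR adjusted p = 0.0149). Without both libraries that stood apart the log2 fold change was 0.88 (edgeR adjusted p = 0.00737), and without knockdown control replicate 3 the edgeR adjusted p over the rest was 0.0617. MMP15, a membrane-type MMP, stood at 7.32, 11.4 and 6.10 against 3.78, 4.20 and 3.01, 2.31-fold higher without overlap (log2 fold change 1.21 ± 0.28, edgeR adjusted p = 0.0115). Without knockdown control replicate 3 its edgeR adjusted p was 0.0566. MMP24, another membrane-type MMP, was lower in knockdown replicate 2 (12.7) than in replicates 1 and 3 (28.6 and 28.9), against 29.5 to 30.9 in the control, and was not called (edgeR adjusted p = 0.382). Its exons share bases with MMP24OS on the opposite strand, which had a mean FPKM of 17.1.

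The TIMPs were not called in the knockdown. TIMP1 stood at 64.9, 87.5 and 66.8 against 65.7, 56.8 and 55.0 and TIMP2 at 19.7, 27.7 and 13.3 against 13.4, 15.6 and 12.3, both with overlapping groups (edgeR adjusted p = 0.0948 and 0.0613). TIMP4 stood at 7.81, 11.2 and 9.30 against 7.77, 6.68 and 7.05 (edgeR adjusted p = 0.274). Leaving out knockdown replicate 3 brought TIMP2 to an edgeR adjusted p of 0.00524, and adding assembled transcripts to 0.00245. ADAMTSL4, a fibrillin-binding protein and the only expressed ADAMTSL, stood at 1.30, 1.52 and 0.77 against 0.80, 0.69 and 0.56 and was not called (edgeR adjusted p = 0.0826). Without the same replicate its edgeR adjusted p was 0.0249.

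**Figure D3:**
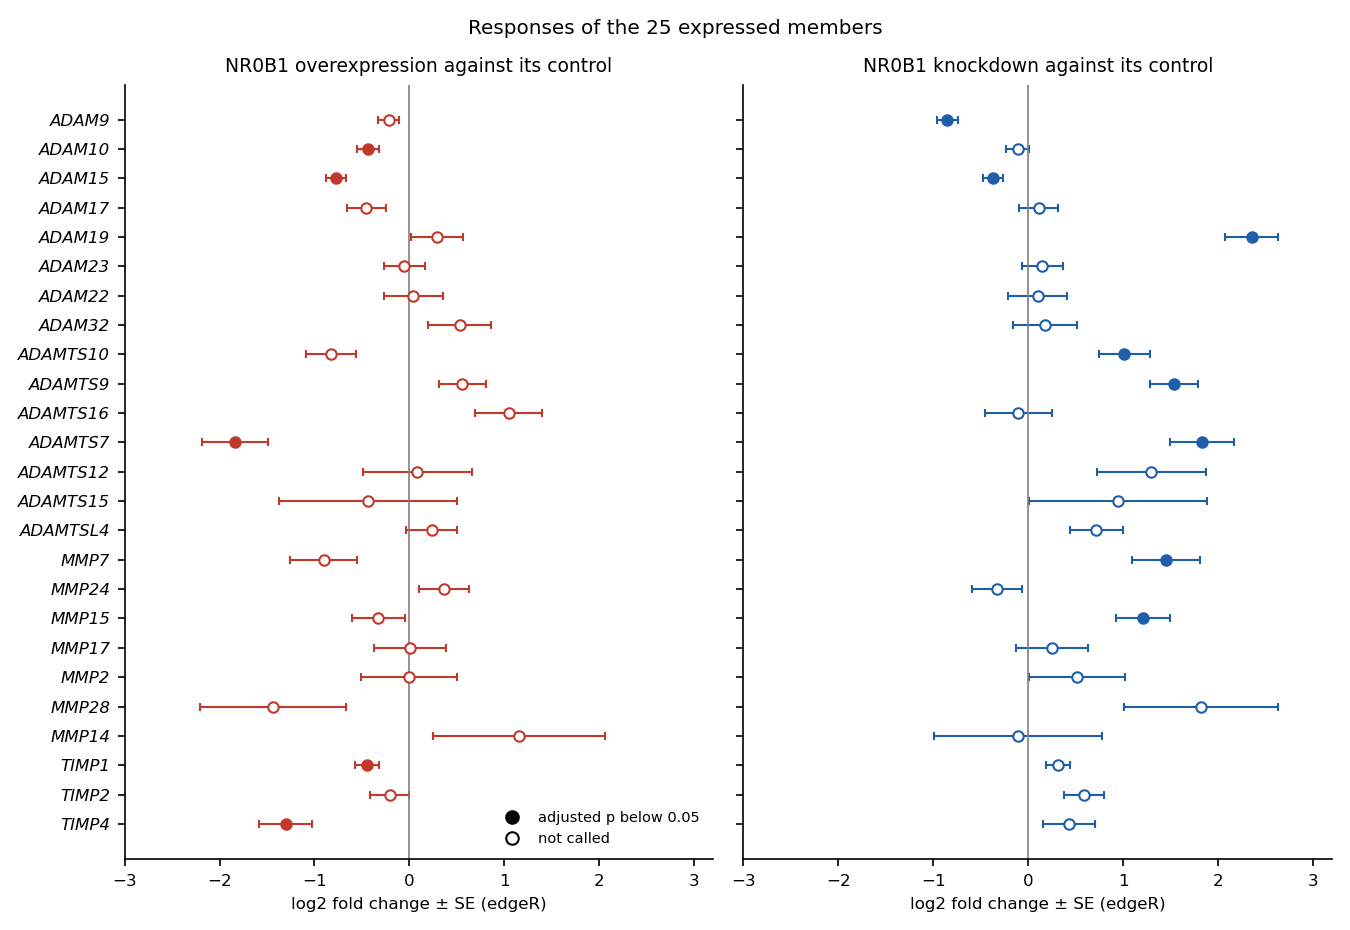
Log2 fold change (horizontal axis) with its edgeR SE for the 25 expressed members in each arm, filled where the adjusted p is below 0.05. With overexpression the 5 filled points lie left of 0, and in the knockdown 6 lie right of 0 and 2 left of it.

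Over all 12 libraries, ADAMTS7 and ADAM15 were the only members called in both arms, 2 of 25 against 689 of 11908 genes. ADAMTS7 moved in opposite directions, as did 490 of the 689, and ADAM15 was lower in both. Without the pair of libraries that stood apart, ADAM9 and ADAM15 were called lower in both arms and ADAMTS9 higher in both. There ADAMTS7, ADAMTS10, ADAMTS15, MMP7 and MMP15 were called lower with overexpression and higher in the knockdown. By sign alone, 15 of the 25 (60.0%) had opposite fold changes in the arms, against 54.5% of all genes. The difference between the arms (the overexpression log2 fold change minus that of the knockdown) was called for 8 members, 32.0% against 25.6% of all genes. Of the 25 members 1 was called above 0 and 7 below, against 13.1% and 12.6% of all 11908 genes tested. The 1 above 0 was ADAM9 (0.64 ± 0.16, edgeR adjusted p = 0.0130). Below 0 were ADAMTS7 (-3.67 ± 0.49, edgeR adjusted p = 0.000676), MMP7 (-2.36 ± 0.51), ADAM19 (-2.06 ± 0.39), ADAMTS10 (-1.84 ± 0.38), TIMP4 (-1.73 ± 0.39), MMP15 (-1.54 ± 0.40) and TIMP1 (-0.76 ± 0.18), with edgeR adjusted p-values from 0.00357 to 0.0164. For ADAM15 the difference was not called (-0.40 ± 0.15, edgeR adjusted p = 0.0690; 0.0411 without knockdown replicate 3). The difference of MMP7 was -1.76 without knockdown replicate 2 and -1.49 without the pair of libraries that stood apart, and that of ADAMTS7 was -2.43 by limma on log2(FPKM + 1). Without that pair, 15 members were called, against 38.5% of all genes.

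Counting members whose FPKM did not overlap between the 3 treated and 3 control libraries gave 11 of 25 with overexpression, against 41.6% of all genes, and 12 of 25 in the knockdown, against 40.5%. These shares are near those of all genes. For 1 gene, an exact two-sided permutation test of 3 against 3 libraries cannot give a p below 0.1, and all members without overlap had that value.

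The 2 control groups differed from each other at many of these genes. Between them 12 members were called, 11 higher in the overexpression control and 1 lower, 48.0% of the 25 against 33.4% of all genes (17.2% higher, 16.1% lower). MMP7 was 5.36-fold higher in the overexpression control (log2 fold change 2.42 ± 0.37, edgeR adjusted p = 0.00107), and ADAMTS9 and ADAMTS7 were 2.90-fold and 2.63-fold higher. MMP24, at 9.41 to 14.1 FPKM there, was 2.48-fold lower (edgeR adjusted p = 0.00442). The others called higher were ADAM10, ADAM15, ADAMTS10, ADAMTSL4, MMP15, MMP28, TIMP1 and TIMP2. The call of ADAM10 (edgeR adjusted p = 0.0487) was lost without any 1 of 9 libraries, all but overexpression control replicate 1 and knockdown replicates 2 and 3, and in 5 of 8 other settings. Those of MMP28, MMP15 and TIMP2 were lost without any 1 of 5, 4 and 4 libraries, each time among the control libraries, with edgeR adjusted p-values of up to 0.0935. MMP7 with overexpression, at 53.7 to 78.0 FPKM, thus stood above the knockdown control at 19.9 to 24.8. No parental library was analysed here, so the distance of either control from unmodified A549 cells was not measured.

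Summed over families, the MMPs amounted to 95.9 ± 12.3 FPKM with overexpression and 149 ± 28.3 in its control, and to 107 ± 31.6 in the knockdown and 67.0 ± 2.99 in its control (SD, n = 3 each). MMP7 made up 65.7%, 77.5%, 54.7% and 34.4% of those sums. The TIMP sum was 106 ± 4.39 against 143 ± 6.43 with overexpression and 103 ± 20.2 against 80.3 ± 6.33 in the knockdown, with TIMP1 at 71.0% to 78.8% of it in each group's mean. These sums cover Ensembl rows only. The assembled transcripts left out held at most 0.44 CPM for TIMP1 but 173 to 318 CPM for TIMP2, so the share of TIMP1 applies to those rows alone. The ADAMTS sum was 34.1 ± 1.20 against 34.7 ± 5.35 and 38.2 ± 7.65 against 19.0 ± 1.53, so with overexpression it differed by less than the SD. ADAM genes summed to 235 ± 7.40 against 288 ± 36.5 and to 225 ± 5.34 against 290 ± 12.4, and in the knockdown the share of ADAM9 was 40.8% ± 4.46 against 58.5% ± 1.63.

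The summed FPKM of a gene weighs short transcripts as heavily as full ones, which mattered most for ADAM10. A transcript model of 148 codons without both a start and a stop codon carried 54.9% of its FPKM, and the full 748-codon transcript had a mean FPKM of 19.9, or 28.9%. These shares were close in the groups, with the full transcript at 27.7% ± 0.641 with overexpression and 28.9% ± 1.05 in the control (SD, n = 3). For ADAM9, ADAM15, ADAM17, MMP7 and MMP15 all of the FPKM lay on transcripts with both codons. For ADAMTS10 the 590-codon form, which lacks the zinc-binding stretch, made up 36.4% to 42.9% of the FPKM with overexpression and 20.1% to 23.8% in the control, without overlap, in the arm where the gene's level was not called. In the knockdown, where it was called, that form was at 12.2% to 28.5% against 9.28% to 24.3%, with overlap. TIMP1 had 70.1% of its FPKM on a 143-codon form and 29.4% on the 207-codon form known as the full inhibitor. These shares are the authors' estimates from short reads and were not tested.

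Below the expression rule, 39 members had enough counts to be fitted without a filter. With overexpression 3 of them were called by edgeR, all higher, which is 7.69% against 10.2% of all genes in that fit and 1.23% of its genes below the rule. In the knockdown 1 was called, 2.56% against 14.9% and 2.8%. MMP25, a membrane-type MMP known from leukocytes, had 24, 88 and 45 counts against 1, 6 and 3 (FPKM 0.38, 1.38 and 0.80 against 0.01, 0.08 and 0.04), with a log2 fold change of 4.19 and an edgeR adjusted p of 0.00382. All 3 libraries lay above all 3 controls, and replicate 2 was the single library of MMP25 above FPKM 1. ADAMTS1, a versican- and aggrecan-cutting protease, had 27, 21 and 28 counts against 1, 4 and 4 (log2 fold change 3.30, edgeR adjusted p = 0.0175). MMP23B had 3, 5 and 5 counts against 0 in every control library (edgeR adjusted p = 0.0486), too few for a fold, and it has a near-identical copy, MMP23A. In the knockdown ADAMTS14, a procollagen-processing protease, had 22, 46 and 31 counts against 3, 4 and 8 (log2 fold change 2.74, edgeR adjusted p = 0.0185). By CPM, all 3 treated libraries lay above all 3 controls for 8 of the 39 with overexpression and for 4 in the knockdown. They lay below the controls for 0 and 3, the last being ADAMTS1, ADAMTS2 and ADAMTS17. ADAMTS2 had 1, 0 and 0 counts in the knockdown against 1, 1 and 3. MMP11, above its controls with overexpression, had 1, 1 and 1 counts against 0, 0 and 1. In both genes a treated and a control library held 1 count each, so library size set the order. Among all genes below the rule 7.66% lay above and 4.82% below with overexpression, and 10.5% and 3.91% in the knockdown. A floor of 3 counts corresponds to 0.153 to 0.234 CPM (counts scaled to library size), depending on the library, and covers counting error only.

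**Figure D4:**
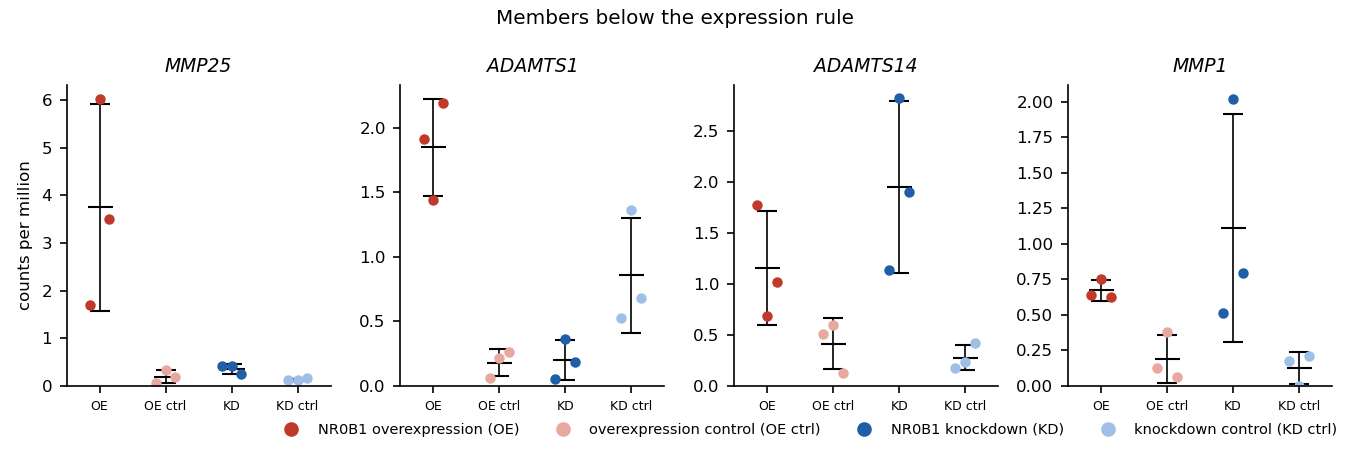
CPM (vertical axes from 0) in each library, by group (horizontal axis), for 4 members below the expression rule; points are libraries, and bars give the mean and SD of 3. MMP25 and ADAMTS1 are high with overexpression, ADAMTS14 in the knockdown, and MMP1 is at about 2 CPM or less throughout.

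Of 16 chaperones, activators and inhibitors other than TIMPs, which make, activate or hold back these proteases, 14 were tested. With overexpression 3 fell (21.4% called, against 18.1% of all genes), and in the knockdown 3 rose and 1 fell (28.6% against 23.9%), so both shares were near those of all genes. FURIN, the convertase that activates most ADAMs and membrane-type MMPs, was lower with overexpression (16.2 ± 1.97 against 25.8 ± 1.68 FPKM, SD, n = 3; log2 fold change -0.69, edgeR adjusted p = 0.0206) and higher in the knockdown (30.5 ± 8.59 against 20.8 ± 0.471; log2 fold change 0.59, edgeR adjusted p = 0.0287). BSG, an MMP inducer, fell with overexpression (log2 fold change -0.60, edgeR adjusted p = 0.00546), as did TSPAN15 (-0.41, edgeR adjusted p = 0.0409). TSPAN15, TSPAN14 and TSPAN5 are tetraspanins that carry ADAM10 to the cell surface. TSPAN14 and TSPAN5 rose in the knockdown by 1.11 and 1.56 on the log2 scale (edgeR adjusted p = 0.00301 and 0.0148), and PCSK5 fell.

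The plasminogen system, which activates several pro-MMPs, had 8 of 11 genes tested, of which 2 fell with overexpression (2 of 8, against 18.1% of all genes called) and 4 rose in the knockdown (4 of 8, against 23.9%). PLAU (urokinase) stood at FPKM 59.8, 64.1 and 58.4 against 97.6, 143 and 164 with overexpression, and at 93.9, 181 and 116 against 77.5, 76.4 and 75.9 in the knockdown (log2 fold change -1.16 and 0.80, edgeR adjusted p = 0.00731 and 0.0243). Neither pair of groups overlapped. PLAT (tissue plasminogen activator) moved likewise at a low level (log2 fold change -1.43 and 1.12, edgeR adjusted p = 0.0160 and 0.0270). SERPINE2 (protease nexin) rose in the knockdown (log2 fold change 1.30, edgeR adjusted p = 0.00211). The list's median log2 fold change was -0.49 with overexpression and 0.70 in the knockdown.

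Of 30 proteins known to be shed by ADAM10 or ADAM17, 25 were tested. With overexpression 2 rose and 7 fell (36.0%, against 18.1% of all genes called), and in the knockdown 6 rose and 4 fell (40.0% against 23.9%). CDH1 (E-cadherin) stood at 39.7, 32.4 and 34.6 against 69.6, 67.1 and 71.8 with overexpression (log2 fold change -1.01, edgeR adjusted p = 0.00215), and NRG1, a ligand of ERBB receptors, rose there by 0.98 on the log2 scale (edgeR adjusted p = 0.00314). SDC1 (syndecan 1) fell with overexpression and rose in the knockdown (log2 fold change -0.64 and 1.41, edgeR adjusted p = 0.00388 and 5.14e-05). NOTCH3 rose in the knockdown (8.49 ± 2.83 against 1.88 ± 0.184 FPKM, SD, n = 3; log2 fold change 2.30, edgeR adjusted p = 0.000133), while PVR fell (-1.05, edgeR adjusted p = 0.00052). These are transcript levels, and shedding itself was not measured.

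Of 8 astacin and pappalysin metalloproteases 2 were tested. BMP1, the procollagen C-proteinase, was lower with overexpression (9.40, 12.2 and 10.8 against 15.1, 16.9 and 15.7; log2 fold change -0.62, edgeR adjusted p = 0.0164) and higher in the knockdown (36.5, 37.5 and 24.5 against 15.4, 14.7 and 13.9; log2 fold change 1.23, edgeR adjusted p = 0.000382), without overlap in either arm.

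Among 16 AP-1, ETS and RUNX factors known at MMP promoters, 15 were tested, of which 6 rose and 1 fell with overexpression (46.7%, against 18.1% of all genes called) and 2 rose and 6 fell in the knockdown (53.3% against 23.9%). JUN stood at 62.0, 67.9 and 64.1 against 14.7, 7.59 and 10.9 FPKM with overexpression (log2 fold change 2.52, edgeR adjusted p = 0.000212), and at 25.1, 23.8 and 32.1 against 66.0, 59.1 and 68.8 in the knockdown (log2 fold change -1.23, edgeR adjusted p = 0.00268). FOSB and ETS2 rose with overexpression by 4.21 and 1.47 on the log2 scale (edgeR adjusted p = 0.00474 and 0.00472). FOSB also rose in the knockdown (log2 fold change 2.61, edgeR adjusted p = 0.0213), and the other factor that rose there was FOS (2.13, edgeR adjusted p = 0.0476). FOSB stood at 10.6, 2.02 and 1.55 against 0.69, 0.48 and 1.07 FPKM, and FOS at 30.9, 4.67 and 1.77 against 2.79, 2.33 and 2.40. Knockdown replicate 1 was far above the other replicates for both genes, and FOS in replicate 3 lay below every control. ETS1 and FOSL2 fell in the knockdown by 1.65 and 0.73 on the log2 scale (edgeR adjusted p = 0.00382 and 0.0104). The list's median log2 fold change was 0.58 with overexpression and -0.34 in the knockdown, opposite in sign in each arm to the medians of the 25 members. Without both libraries that stood apart, a fit chosen after seeing the data, 5 plasminogen genes fell with overexpression (62.5%) and 6 shed proteins rose and 10 fell there (64.0%), against 37.5% of all genes called, and the knockdown calls of FURIN and PLAT were lost (edgeR adjusted p = 0.0564 and 0.0642). Here too the controls differed: JUN in the knockdown control was at the level seen with overexpression.

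**Figure D5:**
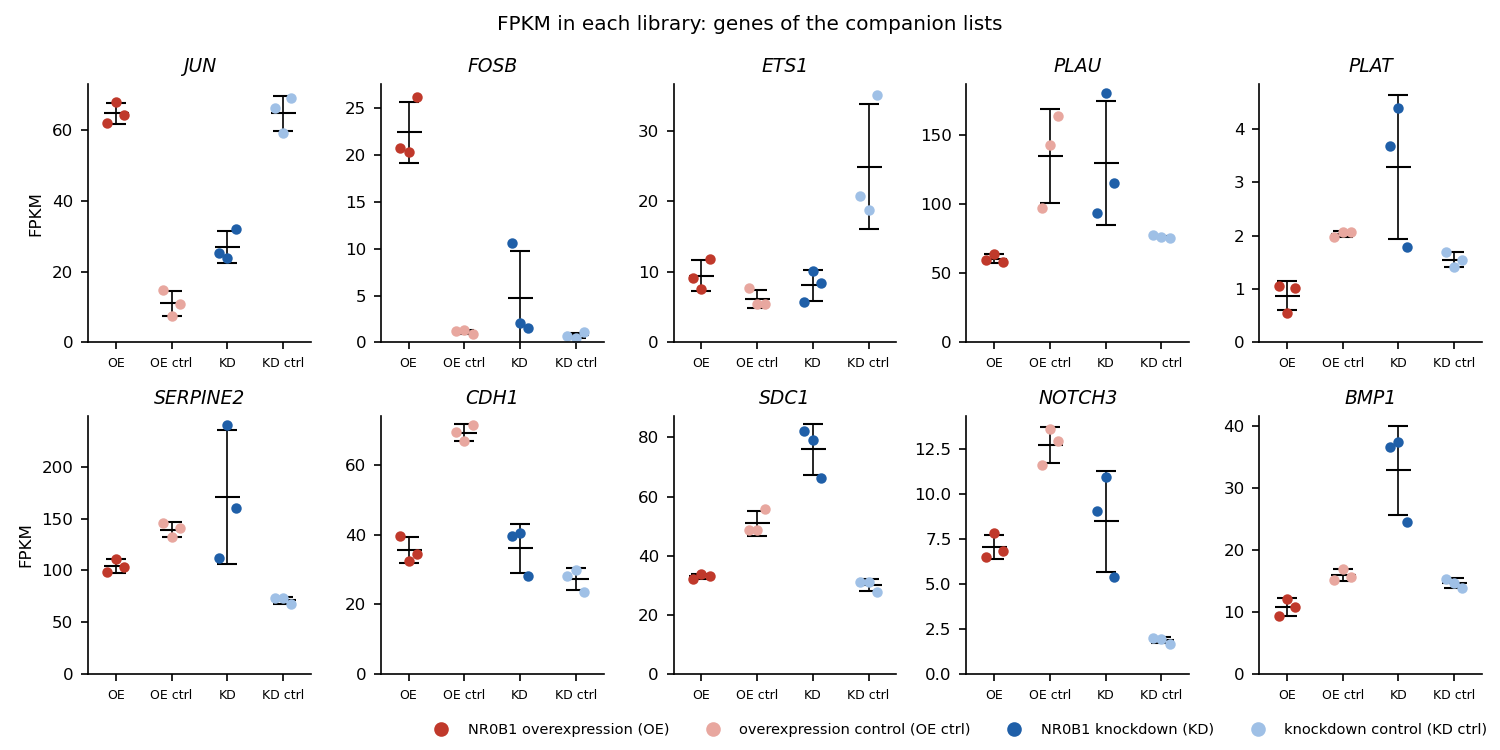
FPKM (vertical axes from 0) in each library, by group (horizontal axis), for 10 genes of the lists above; points are libraries, and bars give the mean and SD of 3. JUN is high with overexpression and in the knockdown control, and PLAU, CDH1 and SDC1 are lower with overexpression than in its control.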

How the data were processed

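RNA-seq of 12 A549 libraries was deposited as 1 table with expected counts and FPKM per transcript and library, per the file headers. Tools named in the submitters' processing notes are RSEM, StringTie 1.3.1, Bowtie2 2.2.8, HISAT2 2.0.5 and fastp. Builds named there (mm10, GRCm38) are of mouse, but the identifiers are human, so coordinates are from GENCODE 29. Rows with Ensembl identifiers (82270 of 96247) were summed per symbol; 184 symbols turned into dates were restored; 13977 assembled transcripts were left out. Expected counts were rounded, and 11908 genes with FPKM of at least 1 in 3 libraries were fitted together (edgeR 4.0.16, TMM, quasi-likelihood, 4 group means, Benjamini-Hochberg, threshold 0.05; R 4.3.3). SE is the log2 fold change divided by the root of F. The fit was tested on simulated data. Alternatives used limma 3.58.1 on log2(FPKM + 1) or log2(FPKM + 0.1), DESeq2 1.42.0, other scaling and filters, and fewer libraries. Named members are expressed members called in an arm or in the difference, each expressed TIMP and the highest member per family; named genes of the other lists have the 3 smallest adjusted p-values per arm. Members and lists were chosen with earlier results of these data known. The list fits without 2 libraries were added after seeing the data.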

Additional observations from a re-analysis of the deposited data

Results flagged for a closer look

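Assembled transcripts that carry a member's symbol (58 in the table) were not part of the comparisons above. Summed per symbol they had counts for 35 members. All 3 treated libraries lay above all 3 controls for 4 of these with overexpression (11.4%, against 11.6% of 7525 symbols with such transcripts) and for 9 in the knockdown (25.7% against 9.65%). They lay below the controls for 3 in each arm (8.57%, against 7.96% and 7.68%), which were ADAMTS15, MMP14 and TIMP4 with overexpression and ADAMTS12, ADAMTSL5 and MMP16 in the knockdown. The sums given here, 7 in all, had at least 3 counts in each treated library and a mean at least 2 times that of the control besides lying above it. The mean with overexpression was 8.92 CPM against 3.33 in the control for ADAM11 and 0.503 against 0 for ADAMTS1. In the knockdown it was 17.7 against 2.67 for ADAMTS7, 10.7 against 2.64 for ADAMTS15, 8.06 against 2.28 for ADAM19, 1.87 against 0.398 for MMP28 and 0.900 against 0.230 for ADAMTSL1.

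Of the members below the expression rule, 6 met the same conditions. With overexpression the mean was 3.75 CPM against 0.195 for MMP25, 1.85 against 0.180 for ADAMTS1, 1.16 against 0.412 for ADAMTS14, 0.674 against 0.180 for ADAMTS4, 0.672 against 0.191 for MMP1 and 0.315 against 0 for MMP23B. In the knockdown it was 1.95 against 0.277 for ADAMTS14, 1.11 against 0.128 for MMP1 and 0.362 against 0.131 for MMP25. Of these values, edgeR without a filter called MMP25, ADAMTS1 and MMP23B with overexpression and ADAMTS14 in the knockdown. It did not call ADAMTS14, ADAMTS4 or MMP1 with overexpression (edgeR adjusted p = 0.184, 0.115 and 0.254), nor MMP1 or MMP25 in the knockdown (edgeR adjusted p = 0.0506 and 0.214).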

How the results depend on the processing

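For single named members 806 values were recomputed; 746 kept their direction and side of the threshold, 32 passed it, 28 lost it and none changed sign as a called value. Members called higher with overexpression numbered 1 in place of 0 by DESeq2, by limma on log2(FPKM + 1) and with assembled transcripts added, and 3 without overexpression control replicate 1 and knockdown replicate 2. Under that last setting 11 were called lower in place of 5, and the difference between arms was called above 0 for 3 and below 0 for 12; DESeq2 called 11 below 0. Fitting each arm alone left 1 member lower in the knockdown. Leaving out 1 library gave 0 to 2 higher and 2 to 7 lower with overexpression, 3 to 8 higher and 1 to 2 lower in the knockdown, and 1 to 2 above and 7 to 11 below 0 in the difference. Why the counts moved was not tested.

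Over all genes, the share of knockdown calls that were higher was 51.9% in edgeR and 41.1% in limma on log2(FPKM + 1). With the number as a replicate block, 6 members were lower with overexpression, and 6 were higher and 2 lower in the knockdown. Deviations of same-numbered libraries correlated at 0.008 to 0.197 in the overexpression arm and -0.087 to -0.006 in the knockdown arm. Those of differently numbered libraries correlated at -0.181 to 0.131 and -0.081 to 0.103. So few pairs cannot decide whether same-numbered libraries were handled together. Depth limits members under about 0.2 CPM, where a library holds 3 counts or fewer.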
